A study of Mus musculus with 4 samples.

Results

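Lysyl oxidases and the genes of elastic fibres were followed in cultured mouse mammary tumour cells: the 5 oxidase genes Lox, Loxl1, Loxl2, Loxl3 and Loxl4, the fibrillin genes Fbn1 and Fbn2, and Eln, Emilin1 and Fbln5. They were taken by symbol, and all 10 were found among the 23361 genes of the deposited table. The cells came from a mammary tumour of the Chaos3 mouse on the C3HeB/FeJ strain, a model with a mutant Mcm4 helicase gene. The libraries labelled High came from the clones AB-C1 and AB-C2, transduced with a lentiviral vector for Arid1a, a subunit of the BAF chromatin remodelling complex (2 libraries, 1 per clone). The libraries labelled Low came from the parental 23116 MT cells (2 libraries), for which the labels name no vector. Each High library is therefore a single clone, and the effect of the vector cannot be told apart from differences between clones. The genes were chosen by family, with their counts in the High against Low comparison of these same libraries already in view. Those values are therefore a description. No p-value is printed for a single member, and counts of members past a threshold are given only beside the share of all genes past it, with nothing read from them.

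Lysyl oxidases are secreted, copper-dependent enzymes that oxidise lysines of collagen and elastin to aldehydes, which then form covalent cross-links between the chains. Lox and Loxl1 carry a propeptide that is cleaved outside the cell, whereas Loxl2, Loxl3 and Loxl4 carry scavenger receptor cysteine-rich domains. Elastic fibres are built from tropoelastin, encoded by Eln, laid down on a scaffold of fibrillin microfibrils with the help of fibulins and emilins. In breast tumours, oxidases of this family are known for stiffening the matrix.

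The libraries held 16523077 and 24307249 fragments in the libraries labelled High and 13889856 and 28110812 in those labelled Low. Arid1a itself stood at 49.9 and 58.4 CPM in the libraries labelled High, against 82.4 and 94.4 CPM in those labelled Low, where CPM is fragments scaled to a common library size after TMM normalisation. It goes against the labels without passing the threshold (log2 fold change -0.71 ± 0.23, SE, edgeR adjusted p = 0.165), and whether transcripts of the vector entered its count is not given in the sources used here. All directions are therefore given for the libraries as labelled. Of the 10 mammary epithelial markers, Epcam, Cdh1, Krt8, Krt18, Krt7 and Krt14 were above 70 CPM in every library, and the markers summed to 2588 and 6515 CPM in the libraries labelled High and 2919 and 2018 CPM in those labelled Low. Epcam, Cdh1, Krt14 and Trp63 were above both parental libraries in both libraries labelled High, where 25.9% of all genes tested were so placed. Krt8, Krt18, Krt7, Krt19, Krt5 and Krt17 overlapped between the groups. Krt8 and Krt18 were below both parental libraries in library 1 labelled High and above both in library 2. None of the 10 passed edgeR's threshold. Cdh1, the epithelial cadherin, had 264 and 387 CPM in the libraries labelled High, against 131 and 146 CPM in those labelled Low (edgeR adjusted p = 0.0578). Krt5 and Krt17 were below 2 CPM in every library. The 5 endothelial markers summed to less than 1 CPM in every library, the 4 listed leukocyte markers to at most 1.35 CPM and the 5 adipocyte markers to at most 0.586 CPM.

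Loxl2, Fbn1 and Emilin1 were the members furthest below the parental level, by 22.4-, 14.6- and 41.7-fold in the libraries labelled High. Loxl4 and Fbln5 stood on the other side, 5.82- and 3.56-fold higher, and Lox, Loxl3 and Eln were lower by smaller or more variable folds. Of the 10 members, 9 passed the filter on low counts. With edgeR's quasi-likelihood test over all genes (adjusted p below 0.05), 3 of these 9 were called lower in the libraries labelled High and 0 higher. That test called 2.47% of the 12977 genes tested, 1.33% lower and 1.14% higher. Unadjusted p was under 0.05 for 4 members on the lower and 2 on the higher side, where 18.1% of all genes tested were under it (8.18% lower, 9.93% higher). DESeq2 called 4 members lower and 2 higher and 8.78% of all genes (4.08% lower, 4.71% higher), and limma-voom called 3 lower and 0 higher and 1.67% of all genes (1.12% lower, 0.555% higher). Without either library labelled Low edgeR called 0 members, but it then called 0 of all genes too. The log2 fold change without Low library 1 and without Low library 2 was -4.61 and -4.35 for Loxl2. It was -4.11 and -3.58 for Fbn1, and -5.00 and -5.69 for Emilin1. These were about as far from 0 as with all libraries. Both libraries labelled High remain in those fits, so this closeness is no separate support. The spread within a group then comes from the High pair alone. The calls with all libraries thus depend on having both Low libraries, whose spread may be technical. Without High library 1 edgeR called 6 members lower and 1 higher and 16.3% of all genes (7.55% lower, 8.77% higher). Without High library 2 it called 5 lower and 2 higher and 18.7% of all genes (8.09% lower, 10.6% higher). Both libraries labelled High lay below both labelled Low in 6 of the 9 members and above both in 2, where 51% of all genes tested had groups that did not overlap (25.2% below, 25.9% above). The median log2 fold change was -1.63 over the 9 members and 0.03 over all genes tested. In bulk RNA, fewer cells of a type and less RNA per cell cannot be told apart.

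**Figure D1:**
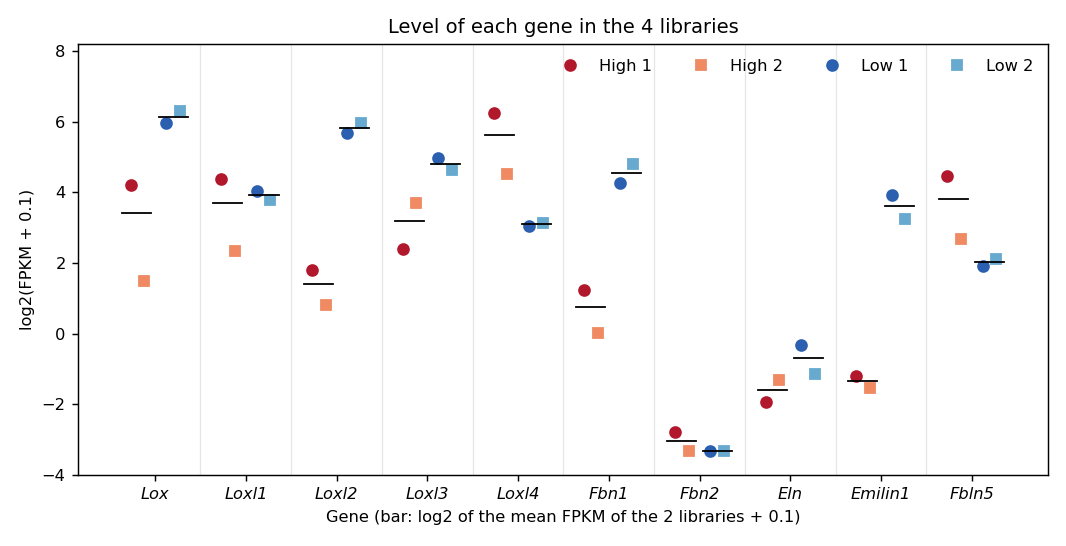
Level of each of the 10 genes in each library, as log2(FPKM + 0.1) on the vertical axis, where FPKM is fragments per kilobase of transcript, scaled for depth. Circles and squares are single libraries, those labelled High left of those labelled Low, and bars mark the log2 of each pair's mean FPKM plus 0.1. Loxl2, Fbn1 and Emilin1 lie well below the parental pair in both libraries labelled High, Loxl4 and Fbln5 lie above it, and Loxl1 overlaps it.

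Per length, the order of the genes differed between the groups. In the libraries labelled High, Loxl4 came first at 48.9 ± 37.1 FPKM (SD, n = 2), then Fbln5 at 14.0 ± 11.0, Loxl1 at 12.9 ± 11.2, Lox at 10.6 ± 11.2 and Loxl3 at 8.96 ± 5.44 FPKM. The ranges of Fbln5, Loxl1, Lox and Loxl3 overlapped, so their order is not fixed beyond the spread. Loxl2 followed at 2.52 ± 1.24 and Fbn1 at 1.59 ± 0.969 FPKM, also with overlapping ranges, and Emilin1, Eln and Fbn2 were below 0.4 FPKM in both libraries. In the libraries labelled Low, Lox came first at 70.7 ± 11.2 FPKM (SD, n = 2), followed by Loxl2 at 56.7 ± 7.37, Loxl3 at 28.0 ± 4.85 and Fbn1 at 23.3 ± 6.11 FPKM. Loxl1 stood at 15.0 ± 1.75, Emilin1 at 12.2 ± 4.02, Loxl4 at 8.45 ± 0.392 and Fbln5 at 3.96 ± 0.377 FPKM. There, Loxl3 overlapped Fbn1 and Loxl1 overlapped Emilin1, and the other neighbours down to Fbln5 did not overlap.

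Lox (chromosome 18, 52516067 to 52529867, minus strand, mm10), the founding member of the oxidase family, had 64.1 and 9.43 CPM in the libraries labelled High, against 215 and 269.8 CPM in those labelled Low. The groups did not overlap, but the libraries labelled High were 6.80-fold apart, with library 1 at 3.79-fold and library 2 at 25.7-fold below the parental mean. The log2 fold change was -2.73 ± 1.06 (SE) and did not pass the threshold. Loxl1 (chromosome 9, 58287738 to 58313186, minus strand), a propeptide-bearing relative that acts on elastin, had 66.4 and 15.9 CPM in the libraries labelled High and 51.5 and 43.6 CPM in those labelled Low. Library 1 labelled High was above both parental libraries and library 2 below both, so no common direction was seen (log2 fold change -0.21 ± 0.73, SE).

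Loxl2 (chromosome 14, 69609068 to 69695834, plus strand), an oxidase that also acts on collagen IV of basement membranes, had 17.2 and 8.32 CPM in the libraries labelled High, against 259 and 311 CPM in those labelled Low. The groups lay far apart, with a log2 fold change of -4.49 ± 0.41 (SE), and the clones were 16.5- and 34.2-fold below the parental mean. Loxl3 (chromosome 6, 83034173 to 83052562, plus strand), a close relative of Loxl2, had 20.0 and 50.03 CPM in the libraries labelled High and 122 and 95.4 CPM in those labelled Low. Here library 1 was the lower of the clones, the reverse of Lox, Loxl1 and Loxl2 (log2 fold change -1.63 ± 0.46, SE, not past the threshold). In the GENCODE annotation, 535 exonic bases of Loxl3 lie opposite Htra2, a mitochondrial protease gene on the other strand. Htra2 had 47.8 and 107.5 CPM in the libraries labelled High, against 105 and 84.0 CPM in those labelled Low, and was also lower in library 1 labelled High. The library kit keeps strand, per the labels, but the strand setting of the counting is not given in the sources used here. Reads of such opposed genes may therefore not be told apart, and their part in the Loxl3 value was not tested.

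Loxl4 (chromosome 19, 42593982 to 42612813, minus strand) was the oxidase with more transcript in both libraries labelled High than in the parental pair. It had 399.8 and 120.3 CPM there, against 43.2 and 46.1 CPM in the libraries labelled Low. Both libraries labelled High were above both parental ones, library 1 by 8.96-fold and library 2 by 2.70-fold (log2 fold change 2.54 ± 0.63, SE). The difference did not pass edgeR's threshold, although DESeq2 called it.

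The make-up of the oxidase pool differed between the groups. Loxl4 made up 61.1% and 50.5% of the summed oxidase FPKM in the libraries labelled High, against 4.81% and 4.66% in those labelled Low. Lox and Loxl2 went the other way, Lox with 15.1% and 6.09% in the libraries labelled High, against 36.9% and 41.9% in those labelled Low, and Loxl2 with 2.77% and 3.68%, against 30.3% and 33.0%. Loxl3 had 4.16% and 28.6% in the libraries labelled High and 18.5% and 13.1% in those labelled Low. The sum over the 5 genes was 123 and 44.8 FPKM in the libraries labelled High and 170.1 and 188 FPKM in those labelled Low. These shares describe transcripts and not enzyme activity.

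**Figure D2:**
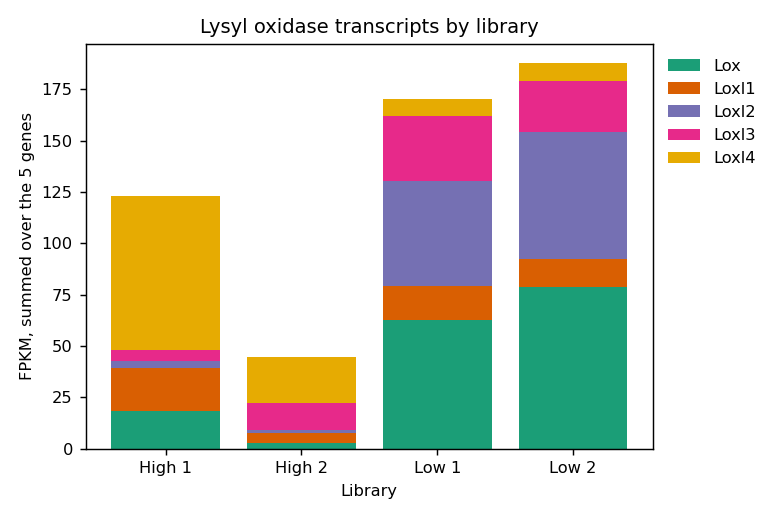
Stacked FPKM of the 5 lysyl oxidase genes (vertical axis, from 0) in each of the 4 libraries. Loxl4 takes 61.1% and 50.5% of the bars of the libraries labelled High, and Lox and Loxl2 together take most of the bars of those labelled Low.

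Fbn1 (chromosome 2, 125300594 to 125507993, minus strand), the fibrillin that forms the core of microfibrils in adult tissue, had 22.4 and 8.90 CPM in the libraries labelled High, against 185 and 269.9 CPM in those labelled Low. The groups did not overlap, and the log2 fold change was -3.87 ± 0.52 (SE). The annotation places 2442 exonic bases of the predicted gene Gm9913 opposite Fbn1, and Gm9913 is not named in the deposited table. Fbn2 (chromosome 18, 58008623 to 58210487, minus strand), a fibrillin mainly of the developing embryo, had 8 fragments in library 1 labelled High and 0 in the other 3 libraries. A count of 0 allows up to 0.122 CPM in library 2 labelled High, and up to 0.221 and 0.11 CPM in the libraries labelled Low (3 fragments each, counting error only). Fbn2 stood at 0.468 CPM in library 1 labelled High, so its transcript was seen in a single clone, and it was not tested.

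Eln (chromosome 5, 134702593 to 134747323, minus strand), which encodes the elastic core protein itself, was scarce throughout. It had 10 and 27 fragments (0.585 and 1.10 CPM) in the libraries labelled High, against 34 and 35 fragments (2.50 and 1.28 CPM) in those labelled Low. Both libraries labelled High were below both parental libraries, but the Low pair itself differed 1.95-fold, and the log2 fold change was -1.13 ± 0.76 (SE). By FPKM, among genes with any fragments in the same library, it stood at the 7.43rd and 19.7th percentile in the libraries labelled High. In those labelled Low it stood at the 22.1st and 16.2nd.

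Emilin1 (chromosome 5, 30913402 to 30921277, plus strand), a glycoprotein at the border of elastin and microfibrils that also restrains processing of the TGF-beta precursor, was the member furthest below the parental level. It had 19 and 20 fragments (1.11 and 0.816 CPM) in the libraries labelled High, against 672 and 840 fragments (49.5 and 30.8 CPM) in those labelled Low. The groups were far apart and the clones close together, with a log2 fold change of -5.38 ± 0.42 (SE). Fbln5 (chromosome 12, 101746565 to 101819055, minus strand), an integrin-binding fibulin that brings Loxl1 and tropoelastin together, had 126 and 36.1 CPM in the libraries labelled High, against 21.2 and 24.3 CPM in those labelled Low. Both libraries labelled High were above both parental ones, library 1 by 5.54-fold and library 2 by 1.59-fold (log2 fold change 1.83 ± 0.64, SE, not past edgeR's threshold and past that of DESeq2).

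**Figure D3:**
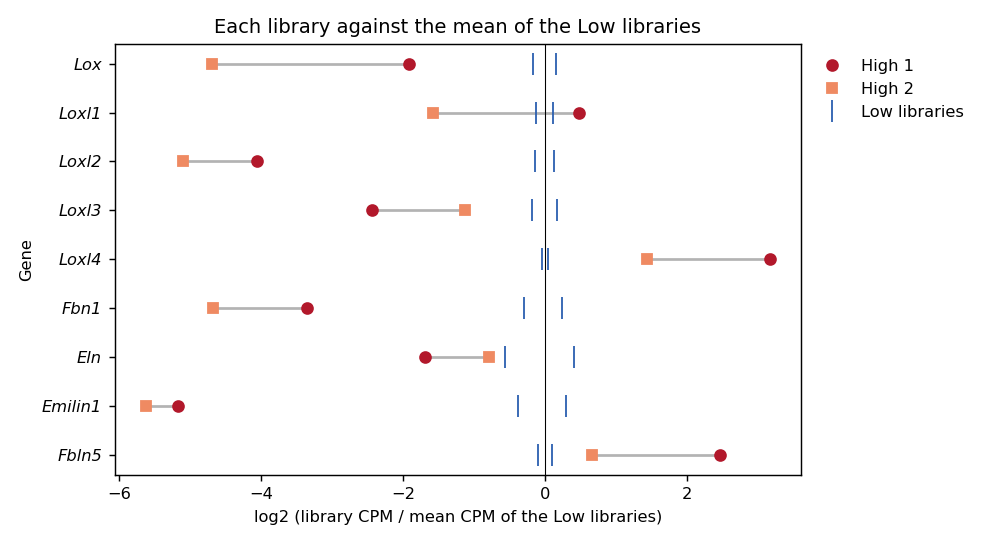
Each library's CPM over the mean CPM of the Low libraries, as log2, for the 9 members tested. Circles and squares are the libraries labelled High, ticks the 2 labelled Low. Emilin1 and Loxl2 are low in both clones, while the clones lie on opposite sides of 0 for Loxl1 and are 6.80-fold apart for Lox.

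The clones differed from each other in these genes. In 7 of the 9 members, library 1 labelled High was above library 2, with ratios of 6.80 for Lox, 4.18 for Loxl1, 3.49 for Fbln5, 3.32 for Loxl4, 2.52 for Fbn1, 2.07 for Loxl2 and 1.36 for Emilin1. Loxl3 and Eln were higher in library 2, by 2.50- and 1.88-fold. The pair labelled Low differed by 1.07- to 1.28-fold over the 5 oxidases and by up to 1.95-fold over the 9 members. The High pair had the wider ratio in 7 of the 9. The exceptions were Eln, at 1.88-fold in the High pair against 1.95-fold in the Low pair, and Emilin1, at 1.36- against 1.61-fold. The High pair was also the further apart as whole libraries, with a chi-square per degree of freedom of 123, against 32.4 for the Low pair. No share over all genes stands beside these counts, so nothing particular to the members is read from them. With 1 library per clone the difference between clones has no replicate, and it was not tested.

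Summed fibroblast and smooth muscle markers were also lower beside these genes. The marker lists, here and above, were chosen with earlier results of these data known, so their p-values are a description. The 10 fibroblast and pericyte markers summed to 1104 and 470.1 CPM in the libraries labelled High, against 6482 and 5785 CPM in those labelled Low. Of the 7 tested, 1 passed the threshold (Fap, lower), where 1.33% of all genes tested passed it on the lower side. Collagen genes made up most of the parental sum. Col1a1 had 63.6 and 16.1 CPM in the libraries labelled High, against 2527 and 2138 CPM in those labelled Low (edgeR adjusted p = 0.0716). Col3a1 had 170 and 2.04 CPM in the libraries labelled High, against 1975 and 1839 CPM in those labelled Low (edgeR adjusted p = 0.41). Col1a2 had 14.6 and 305 CPM in the libraries labelled High, against 1152 and 982 CPM in those labelled Low (edgeR adjusted p = 0.467). For Col3a1 and Col1a2, the libraries labelled High lay below both labelled Low but far apart from each other. Pdgfrb, a receptor of pericytes and fibroblasts, was also below, at 425 and 101 CPM in the libraries labelled High, against 726 and 697 CPM in those labelled Low. Within this list, Lum was at 0 in every library, and Rgs5 and Thy1 were at most 1.03 CPM. Pdgfra, a receptor of fibroblasts, had 235 and 26.6 CPM in the libraries labelled High and 79.5 and 97.5 CPM in those labelled Low, overlapping between the groups. Dcn, a proteoglycan of fibroblasts, was higher in both libraries labelled High (195 and 19.7 CPM), against 4.197 and 5.46 CPM in those labelled Low, without passing the threshold. The 5 smooth muscle markers summed to 37.6 and 12.2 CPM in the libraries labelled High, against 1356 and 1185 CPM in those labelled Low, and 1 of the 3 tested passed the threshold. That gene, Acta2, the smooth muscle actin, had 22.8 and 8.65 CPM in the libraries labelled High, against 1323 and 1156 CPM in those labelled Low, and fell 79.2-fold (edgeR adjusted p = 0.00983). Tagln, another smooth muscle gene, had 11.5 and 2.82 CPM in the libraries labelled High, against 32.8 and 27.9 CPM in those labelled Low, without passing (edgeR adjusted p = 0.209), while Myh11, Cnn1 and Des were below 1.5 CPM throughout. Bulk RNA does not show which cells of the cultures carried these marker transcripts, the tumour cells or others. The part of any such cells in the values of Lox, Loxl2, Fbn1 and Emilin1 was not tested.

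The RefSeq promoter table (build GRCm38.p6, 250 bases before to 50 after a transcript start) held 4 of the 10 members, and all 4 are shown. Loxl4 and Fbln5 stood above the parental level, without passing edgeR's threshold, and Fbn1 and Emilin1 below it. They were not chosen as a contrast. Motifs for AP-1 (TGANTCA), TEAD (CATTCC), the SNAI and ZEB E-box (CACCTG), Sp1 (GGGCGG) and the TATA box (TATAAA) were searched on both strands, and matches are in capitals. Only the Sp1 letters were found, 3 times for Loxl4, 2 times for Fbln5, 1 time for Fbn1 and 0 times for Emilin1. They occur in 35.7% of the 32851 promoters of that length, against 7.81% for AP-1, 14.7% for TEAD, 20.2% for the E-box and 13.6% for TATAAA. A second start of Fbln5 held none of the 5 motifs. Bases G and C made up 75% of the Loxl4 window, 65.7% of the Fbln5 window, 60.3% of the Fbn1 window and 61.7% of the Emilin1 window. The sequences run 5′ to 3′ on the strand of the gene.
Loxl4, chr19:42612757-42613056, minus strand: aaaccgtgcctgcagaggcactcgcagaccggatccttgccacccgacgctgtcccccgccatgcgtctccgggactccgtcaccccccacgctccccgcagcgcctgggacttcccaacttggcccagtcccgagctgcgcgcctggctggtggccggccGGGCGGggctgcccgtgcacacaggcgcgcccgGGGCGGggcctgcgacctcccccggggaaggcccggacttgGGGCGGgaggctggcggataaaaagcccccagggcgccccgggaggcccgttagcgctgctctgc
Fbln5, chr12:101819070-101819369, minus strand: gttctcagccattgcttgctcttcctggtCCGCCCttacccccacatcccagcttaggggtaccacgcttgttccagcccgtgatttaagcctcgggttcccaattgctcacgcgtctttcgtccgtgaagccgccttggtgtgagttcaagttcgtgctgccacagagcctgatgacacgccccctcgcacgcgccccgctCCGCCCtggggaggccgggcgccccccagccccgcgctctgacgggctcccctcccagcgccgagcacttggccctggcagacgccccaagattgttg
Fbn1, chr2:125506389-125506688, minus strand: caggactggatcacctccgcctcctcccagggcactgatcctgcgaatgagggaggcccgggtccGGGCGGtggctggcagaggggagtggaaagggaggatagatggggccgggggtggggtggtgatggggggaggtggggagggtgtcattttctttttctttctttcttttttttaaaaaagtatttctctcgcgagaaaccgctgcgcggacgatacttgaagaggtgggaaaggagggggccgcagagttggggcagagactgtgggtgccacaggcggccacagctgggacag
Emilin1, chr5:30913536-30913835, plus strand: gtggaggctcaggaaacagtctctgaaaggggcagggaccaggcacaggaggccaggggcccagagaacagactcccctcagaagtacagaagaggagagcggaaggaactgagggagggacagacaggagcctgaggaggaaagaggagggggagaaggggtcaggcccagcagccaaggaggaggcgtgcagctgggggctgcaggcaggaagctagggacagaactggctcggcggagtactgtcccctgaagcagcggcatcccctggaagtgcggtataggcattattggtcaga

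The wider elastic fibre pathway was read from the same fit, over 52 further genes in 5 groups. These lists were also chosen with earlier results of these data known, so their calls and p-values are a description. All 52 were listed, 40 were tested and 5 had no fragments in any library. Among the 40, 6 fell in the libraries labelled High, 0 rose and 34 were not past the threshold of edgeR (adjusted over all genes). On the higher side 6 had an unadjusted p under 0.05, and 9 on the lower side, while DESeq2 called 3 higher and 9 lower and limma-voom 0 higher and 6 lower. Over all genes tested, edgeR's adjusted threshold called 2.47% (1.33% lower, 1.14% higher), the share to set beside the counts of each group below. Unadjusted p was under 0.05 in 18.1% of all genes tested (9.93% higher, 8.18% lower). DESeq2 called 8.78% and limma-voom 1.67%. The median log2 fold change of the 40 was 0.02, against 0.03 over all genes tested. With either library labelled Low left out, the spread within a group comes from the High pair alone, and no call was kept. That loss was not particular to these genes. The calls with all libraries thus depend on having both Low libraries, whose spread may be technical. The folds of the 6 genes that fell stayed close, with both libraries labelled High kept in those fits. The log2 fold change of Bmp1, for example, was -1.92 without Low library 1 and -2.21 without Low library 2. Without High library 1 edgeR called 17 pathway genes lower and 5 higher, and without High library 2 it called 11 lower and 10 higher, where it called 16.3% and 18.7% of all genes.

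Of the genes for maturation of the oxidases and their collagen substrates, Bmp1 and Pcolce2 fell. Bmp1, the procollagen C-proteinase that also cleaves the Lox propeptide, had 194 and 169.7 CPM in the libraries labelled High, against 834 and 688 CPM in those labelled Low. It fell 4.19-fold (log2 fold change -2.07 ± 0.24, SE, edgeR adjusted p = 0.00768), and the groups did not overlap. Pcolce2, an enhancer of procollagen C-proteinase, had 10.01 and 13.2 CPM in the libraries labelled High, against 60.9 and 60.8 CPM in those labelled Low, and fell 5.24-fold (edgeR adjusted p = 0.00758). Of the 10 tested genes of this group, 2 fell and 8 did not pass. Pcolce, the more abundant relative of Pcolce2, was among those that did not pass (edgeR adjusted p = 0.977). It had 478 and 247 CPM in the libraries labelled High and 435 and 305 CPM in those labelled Low, with overlapping groups. Fn1, the fibronectin on which microfibrils and oxidases assemble, was its most abundant gene, at 1495 and 572 CPM in the libraries labelled High, against 2510.2 and 3412 CPM in those labelled Low (log2 fold change -1.52 ± 0.49, SE, edgeR adjusted p = 0.204).

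Among other fibulins and emilins, 1 of 7 tested genes fell and 6 did not pass. Fbln1, a fibulin of basement membranes and elastic fibres, had 3.51 and 2.203 CPM in the libraries labelled High, against 37.3 and 30.0 CPM in those labelled Low. It fell 11.8-fold (log2 fold change -3.56 ± 0.37, SE, edgeR adjusted p = 0.00579). Its family member Fbln5 was higher in the same libraries, by 5.54- and 1.59-fold, without passing edgeR's threshold. Fbln2, the most abundant gene of the group, had 2152 and 1262 CPM in the libraries labelled High and 1798 and 1544 CPM in those labelled Low, with overlapping groups (edgeR adjusted p = 0.971). In the microfibril group, 10 genes were tested and 0 passed, 3 of them with an unadjusted p under 0.05 on the higher side and 1 on the lower. Ltbp2, a latent TGF-beta binding protein that sits on microfibrils, was its most abundant gene, at 458 and 157 CPM in the libraries labelled High and 244 and 233 CPM in those labelled Low. The groups overlapped because the clones lay on either side of the parental pair (edgeR adjusted p = 0.769).

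Among the elastin receptor complex and the fibre receptors, the integrin subunits Itga5 and Itgb3 fell. Of 8 tested genes, 2 fell and 6 did not pass. Itga5, the alpha subunit of the fibronectin receptor, had 65.4 and 54.4 CPM in the libraries labelled High, against 315 and 260.3 CPM in those labelled Low, and fell 4.80-fold (edgeR adjusted p = 0.00625). Itgb3, a beta subunit that pairs with the alpha v chain, had 1.05 and 3.999 CPM in the libraries labelled High, against 42.0 and 42.7 CPM in those labelled Low, a 16.4-fold fall (edgeR adjusted p = 0.0425). Itgb1, the most abundant of the group, had 2166 and 1844 CPM in the libraries labelled High and 1809.7 and 2287 CPM in those labelled Low, overlapping between groups (edgeR adjusted p = 0.964).

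Of the 5 tested genes in the group listed as elastin-degrading enzymes, 1 fell. Mmp9, a gelatinase that degrades elastin, had 26.0 and 27.3 CPM in the libraries labelled High, against 109 and 87.9 CPM in those labelled Low, and fell 3.69-fold (log2 fold change -1.89 ± 0.24, SE, edgeR adjusted p = 0.0104). Ctsb, a lysosomal cathepsin and the most abundant of the group, had 874 and 363 CPM in the libraries labelled High and 504 and 475 CPM in those labelled Low, with overlapping groups (edgeR adjusted p = 0.728).

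**Figure D4:**
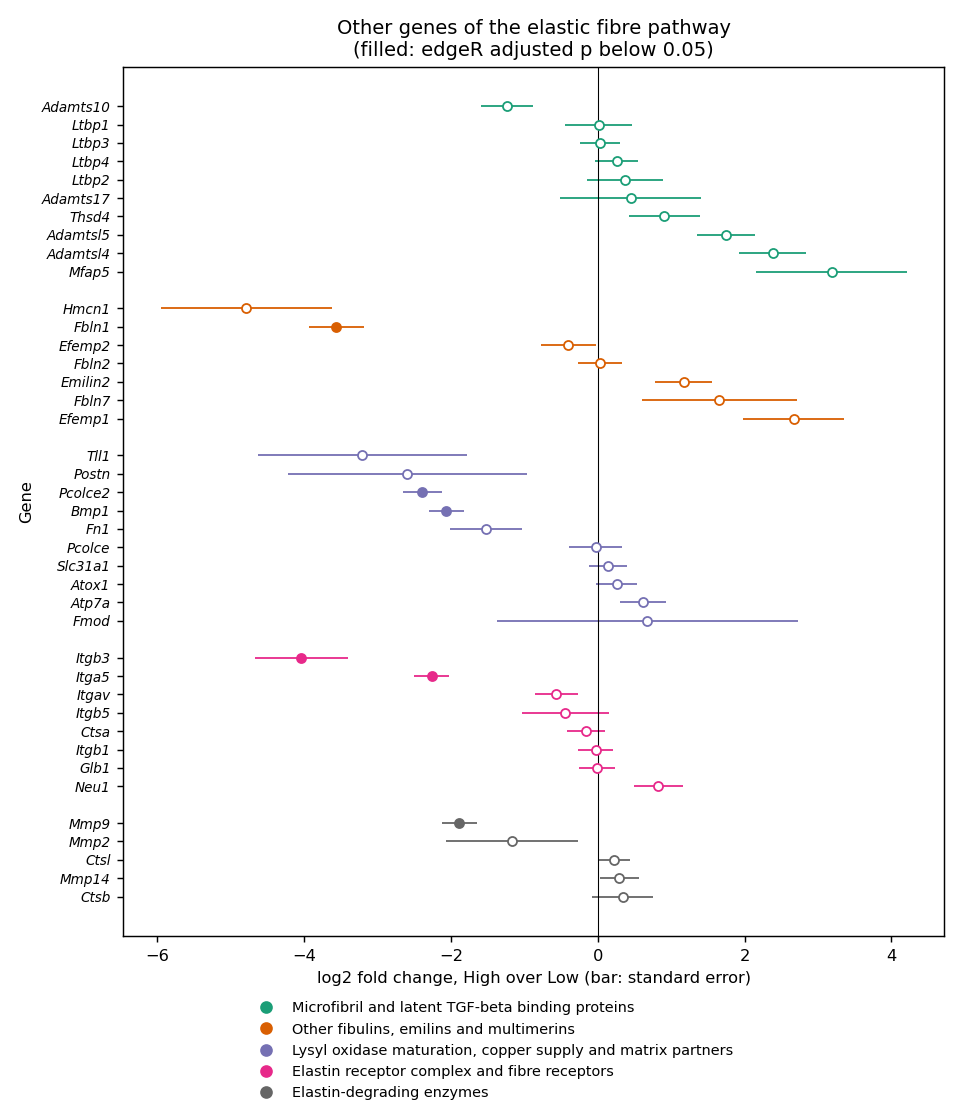
Log2 fold change, libraries labelled High over those labelled Low (horizontal axis, bars are standard errors), for the 40 tested genes of the pathway outside the members, coloured by group. Filled points passed edgeR's adjusted p of 0.05: Fbln1, Pcolce2, Bmp1, Itgb3, Itga5 and Mmp9, all with values below 0.

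For Lox, Loxl2 and Fbn1, the genes with the most similar profile were those with the smallest root-mean-square difference of centred log2 CPM over the 4 libraries. Nearest to Lox were the calcium channel gene Cacna1c (difference 0.0731), Epb4.1l3 (0.122), the ephrin receptor Epha3 (0.139) and Lpar4 (0.191). Cacna1c had 11.4 and 1.75 CPM in the libraries labelled High, against 40.9 and 46.0 CPM in those labelled Low, the same uneven clones as Lox. Nearest to Loxl2 were Armcx2 (0.175), the transcription factors Mecom (0.267) and Hey1 (0.276), and Tmem119 (0.293). Armcx2 had 4.10 and 2.24 CPM in the libraries labelled High, against 71.3 and 64.1 CPM in those labelled Low. Nearest to Fbn1 were Cd109, a surface protein that binds TGF-beta (0.216), Tspan18 (0.268), the small proteoglycan Aspn (0.287) and Pabpc4l (0.294). Cd109 had 8.55 and 3.92 CPM in the libraries labelled High, against 58.3 and 83.9 CPM in those labelled Low. Epha3, Lpar4, Aspn and Pabpc4l were at most 0.0816 CPM in library 2 labelled High, under the level of 0.122 CPM that 3 fragments give there. A prior count of 2 was added before log2 was taken, so the differences of such scarce genes depend on it. With 4 libraries, such likeness is a description only.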

How the data were processed

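RNA of cultured cells (500 ng per library) was sequenced from strand-specific libraries, per the labels' protocols. The submitters' processing notes name the build mm10 and, as tools, Cuffdiff 2.2.1, TopHat2 2.0.13 and cutadapt 1.5. For each gene in each library, the authors deposited an estimated count of fragments (99.18% whole within 1e-06), rounded here to whole numbers. Per the file headers, the authors also deposited FPKM, per kilobase and corrected for depth after a scaling of each library, used here to compare levels between genes.

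Genes were tested on the counts with edgeR 4.0.16 (R 4.3.3): quasi-likelihood test, two-sided, TMM, filter with smallest count 10, Benjamini-Hochberg over 12977 genes at 0.05. It left 2 residual degrees of freedom, with a biological coefficient of variation of 32.2%. The test was also run on simulated counts with the same spread for every gene and library. That setting lacks the uneven spread of the High and Low pairs, so it does not vouch for the p-values here. A total of 11 genes with a failed status were left out. No exact permutation test is given, since its smallest p with 2 libraries against 2 is 0.333. DESeq2 1.42.0, limma 3.58.1 and other settings were alternatives. No column lacked a sample (0 columns). The numbers 1 and 2 only name libraries: which library is which clone is not given. Nothing in the labels says whether the parental duplicates are separate cultures. The spread behind the p-values is the one between these libraries, which may be technical. The duplicates differed far beyond sampling noise (chi-square per degree of freedom 123 for the High pair and 32.4 for the Low pair) and were kept apart.

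The members, lists and motifs were chosen with earlier results of these data known. Named outside the members were the pathway genes called by edgeR and the gene with the highest mean CPM of each group. The 4 genes most alike to Lox, Loxl2 and Fbn1 were also named. Pcolce was named beside its relative Pcolce2, after its values were seen. Gene coordinates and overlaps come from GENCODE M21 (GRCm38, the assembly of mm10).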

Additional observations from a re-analysis of the deposited data

How the results depend on the processing

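The calls of Loxl2, Fbn1 and Emilin1 held in 12 of 14 alternatives each, as did those of Fbln1, Bmp1, Pcolce2, Itga5 and Mmp9, and the other 2 were the fits without a library labelled Low, in which edgeR called 0 of all genes. In those fits the log2 fold changes stayed close, at -5.00 and -5.69 for Emilin1, against -5.38 with all libraries. For Itga5 they were -2.12 and -2.40, against -2.26. Itgb3 held in 11, and was also lost with a crossed pairing. The alternatives refit these same libraries, and the members were chosen with this contrast in view. How often a call held is therefore a description. Both libraries labelled High remain in the fits without a Low library, so close folds there are no separate support. As the spread within a group then comes from the High pair alone, the calls depend on having both Low libraries. DESeq2 called 1140 genes in all (8.78% of 12977). It called 2 members higher and 4 lower, and 3 pathway genes higher and 9 lower. Without a filter on low counts, edgeR called 818 of 16669 genes in all. It called 0 members higher and 3 lower, and 3 pathway genes higher and 7 lower. The numbers pair nothing in the labels, and same-numbered libraries deviated with a correlation of -0.139. With the replicate number as a block, edgeR called 464 of 12977 genes, against 321 without it. It then called 1 member (Loxl4) and 1 pathway gene higher, and 3 members and 6 pathway genes lower. With the crossed pairing, added after seeing the data, it called 94 genes. Leaving out 1 library gave 0 to 2480 genes, 0 to 2 members higher and 0 to 6 lower, and 0 to 10 pathway genes higher and 0 to 17 lower. The lowest counts came without a Low library, and the highest totals without a High library, which leaves a single clone assumed to vary like the Low pair. Arid1a had a log2 fold change of -0.83 to -0.60 over all alternatives. Signs turned for values near 0 or split between clones: with 1 library left out, the log2 fold change of Loxl1 ran between -1.58 and 0.48, of Ltbp2 between -0.60 and 0.94, of Ctsb between -0.43 and 0.83, of Fbln2 between -0.40 and 0.36 and of Itgb1 between -0.19 and 0.14. Fbln2 was also at -0.0164 with limma-voom, -0.0158 with the replicate block, -0.0156 with the crossed pairing and -0.0264 with FPKM, and Itgb1 at 0.0166 with upper-quartile factors and 0.0400 on library totals. The cause was not tested. Depth limits Eln, Fbn2 and the level of Emilin1 in the libraries labelled High, each with at most 35 fragments in those values.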

Other observations

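A few matrix genes of the pathway list set the libraries labelled High apart from each other more than the groups, and they were chosen after their values were seen. Fmod, a small proteoglycan that binds collagen and Lox, had 11.4 and 0.0408 CPM in the libraries labelled High, against 3.02 and 4.07 CPM in those labelled Low. Its value in library 2 labelled High is 1 fragment, under the level of 0.122 CPM that 3 fragments give there. The size of that clone difference is therefore uncertain. Postn, a matricellular protein that supports the processing of Lox, had 124 and 4.45 CPM in the libraries labelled High, against 356 and 417 CPM in those labelled Low. Fbln7 had 13.9 and 1.43 CPM in the libraries labelled High and 2.87 and 1.98 CPM in those labelled Low. None of these 3 passed edgeR's test (adjusted p = 0.906 for Fmod, 0.507 for Postn and 0.484 for Fbln7). Adamtsl4, which binds fibrillin microfibrils and was also chosen after its values were seen, differed more between the groups (5.21-fold higher) than between the clones (2.33-fold). It had 124 and 53.2 CPM in the libraries labelled High, against 19.9 and 14.2 CPM in those labelled Low, and missed the threshold with edgeR (adjusted p = 0.0643), but was past it, on the higher side, in 5 of 14 alternatives: DESeq2, edgeR with no filter on low counts, edgeR with the replicate block, and edgeR without either library labelled High.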
